A study of Mus musculus with 10 samples.

Results

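Genes known from fat cells were followed in tumors that had grown under the skin of obese mice. Of the 55401 gene identifiers in the count table, 10 were picked by mouse symbol as adipocyte genes: Adipoq, Lep, Cfd, Retn, Plin1, Cidec, Lpl, Cd36, Fabp4 and Pparg. The choice was by symbol and not by a cut on measured values, but it was made with earlier results of these data known. All 10 had counts, and 7 of them passed the filter on low counts that left 17464 genes for testing. Plin1, Lep and Retn did not pass it, so their tests come from a fit over all 35141 genes with at least 1 count. No difference between the treatments passed the test for any of these genes. Levels differed widely between tumors of the same group, as for Adipoq, which ranged from 0.345 to 6.30 counts per 1000000 counts (CPM) among the vehicle tumors.

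The tumors came from KPN1.1, a single mouse lung adenocarcinoma line that also holds NINJA, an inducible neoantigen cassette. In each male C57BL/6J mouse 75000 cells had been injected into the flank. The mice were 7 to 17 weeks old at injection and obese from chow with 60% of its calories from fat, in both groups. Once a tumor could be felt they received liraglutide, an agonist of the receptor for glucagon-like peptide 1, at 0.2 µg per gram of body weight per day into the peritoneum, or PBS as the vehicle, and were euthanized on days 19 to 22. RNA was sequenced from a frozen fragment of 5 vehicle tumors and 5 liraglutide tumors, numbered 1 to 5 in each group. The fragment held tumor cells together with host cells. The methods describe the removal of skin and fat for tumors analysed by flow cytometry and do not state it for the fragments used for RNA. Tumors of lean mice and fat depots were not analysed here, so the comparison is that of liraglutide with vehicle, all in obese animals.

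White adipocytes store triglyceride in 1 large droplet that is coated by perilipin-1. They take up fatty acids which lipoprotein lipase frees from circulating lipoproteins, and they release hormones such as leptin and adiponectin that report on energy stores. PPARγ, encoded by Pparg, drives the formation of fat cells together with C/EBP factors. Several of these genes are not restricted to fat: Pparg, Cd36, Lpl and Fabp4 are also used by macrophages, and Cd36 and Fabp4 by the lining of small vessels. In bulk RNA, fewer cells of a type and less RNA per cell cannot be told apart.

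Total counts were between 9927942 and 14480593 in the vehicle tumors (median 11780722) and between 10336934 and 13105261 in the liraglutide tumors (median 12208093). At this depth 3 counts, taken as the floor, were worth 0.207 to 0.302 CPM of the unscaled totals. The other CPM values use totals scaled by TMM, a correction for library composition. Floors and intervals cover counting error only. Tumors of the same group differed by at least 8.38 times the counting noise (chi-square per degree of freedom), so no library of a group repeated another of that group. The labels number the tumors but do not say how many mice they came from, and p-values measure the spread between these tumors.

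Total counts of the members spanned a wide range. Over all 10 tumors together Adipoq had 191 counts, Cfd 181, Plin1 85, Lep 36 and Retn 15. Fabp4 had 2296 counts, Lpl 2413, Cidec 1307, Cd36 6420 and Pparg 16427. Further genes known from fat differed widely as well, given here in counts per tumor. Adig, needed for full fat cell maturation, had at most 2 counts in a tumor, Adrb3, the β3-adrenergic receptor, at most 3, and Ucp1, the uncoupler of brown fat, 0 in every tumor. Plin4, a droplet coat protein, had 319 to 981 counts, Lipe, the hormone-sensitive lipase, 118 to 307, and Cidea, a relative of Cidec, 0 to 38. In CPM, without correction for length, the epithelial keratin gene Krt8 was at 2435 ± 651 (mean ± SD, n = 5) in the vehicle tumors and 2030 ± 361 (n = 5) in the liraglutide tumors. Epcam, another epithelial gene, was at 2.46 ± 1.90 and 3.00 ± 0.841 CPM.

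Between genes, levels can be compared only per length, here as CPM per kilobase of the canonical transcript, as mean ± SD over the 10 tumors. Pparg was the highest at 50.6 ± 12.8 and was above Cd36 in 10 of 10 tumors. Cd36 (15.1 ± 9.58) and Fabp4 (15.0 ± 10.5) changed places, with Cd36 the higher in 5 of 10 tumors. Both exceeded Lpl (4.95 ± 1.90) on average, and Fabp4 did so in 10 of 10 tumors. Cidec (3.89 ± 2.21) was below Lpl in 7 of 10 tumors and above Cfd (1.68 ± 1.57) in 9 of 10. Cfd was above Adipoq (1.30 ± 1.32) in 6 of 10 tumors, so these neighbors did not differ beyond their spread. Adipoq was above Plin1 (0.254 ± 0.306) in 10 of 10 tumors. Retn (0.114 ± 0.133) and Lep (0.104 ± 0.159) were the lowest and could not be ordered. With the length of all annotated exons in place of the canonical transcript, the values per kilobase were 19.9 for Pparg, 4.20 for Cd36, 4.11 for Fabp4 and 1.66 for Lpl, which put Lpl below Cidec (3.60).

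**Figure D1:**
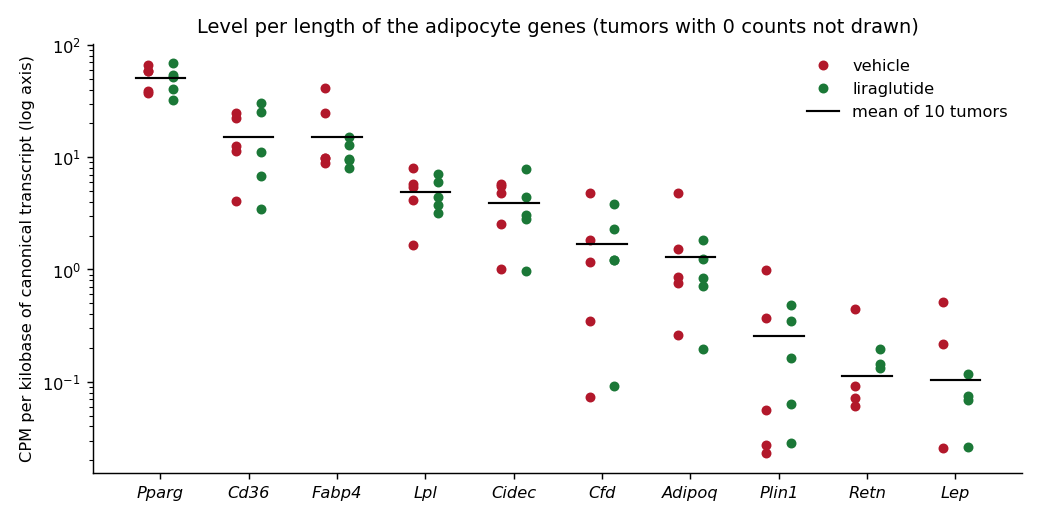
Level per length of each adipocyte gene, in CPM per kilobase of the canonical transcript on a log axis, with 1 point per tumor (red, vehicle; green, liraglutide; tumors with 0 counts are not drawn) and a bar at the mean of 10 tumors. The means run from 50.6 for Pparg down to 0.104 for Lep, and the points of both treatments overlap for every gene.

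Adipoq, Cfd, Lep and Plin1 varied together across the tumors, with r of log2 CPM of 0.75 or more between any pair of them. Fabp4 had r of 0.73 to 0.93 with them but no promoter window. Lep had only 36 counts in all, and no tested relation passed without vehicle tumor 3. The promoters of Adipoq, Cfd, Lep and Plin1 are printed to show which of them carry letters that C/EBP factors prefer. Each line gives the 100 bases up to the base before the RefSeq start (GRCm38.p6), 5′ to 3′ on the strand of the gene. Capitals mark TTGCNNAA, a C/EBP-type motif. Adipoq lies at chr16:23146436-23146535 (+), Cfd at chr10:79890753-79890852 (+), Lep at chr6:29060121-29060220 (+) and Plin1 at chr7:79732777-79732876 (-).
Adipoq: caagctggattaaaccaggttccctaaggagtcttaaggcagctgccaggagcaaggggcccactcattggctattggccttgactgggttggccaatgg
Cfd: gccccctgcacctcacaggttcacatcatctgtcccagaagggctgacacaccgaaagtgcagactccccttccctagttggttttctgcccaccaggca
Lep: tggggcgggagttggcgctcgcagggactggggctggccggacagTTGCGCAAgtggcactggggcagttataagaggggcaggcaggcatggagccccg
Plin1: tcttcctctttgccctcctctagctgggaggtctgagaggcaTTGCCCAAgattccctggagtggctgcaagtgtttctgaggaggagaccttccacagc

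Windows of 250 bases before to 50 bases after the start were searched on both strands, 11 windows of 8 members, with none for Fabp4 and Lpl. TTGCNNAA was found in Lep at 55 to 48 bases before the start, where it reads the same on both strands, in Plin1 at 58 to 51 and again at 187 to 180 bases before the start, in 1 of 2 windows of Cidec and in 1 of 3 windows of Pparg. It was in 10.8% of the 32851 promoters searched. The PPAR:RXR element AGGNCANAGGNCA was in none of the members' windows and in 0.381% of all promoters. The single repeat AGGTCA, present in 16.3% of promoters, was in Cd36 and in 2 of 3 windows of Pparg. These matches are descriptions of letters and say nothing about binding in the tumors.

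The secreted products of fat cells came first. Adipoq encodes adiponectin, a circulating hormone that raises insulin sensitivity. In the vehicle tumors 1 to 5 it was at 0.345, 2.03, 6.30, 1.00 and 1.14 CPM, and in the liraglutide tumors 1 to 5 at 0.259, 1.63, 2.43, 0.945 and 1.12 CPM. Vehicle tumor 3 stood above all others, with 60 counts and an exact 95% interval of 4.81 to 8.11 CPM that does not reach the interval of the next vehicle tumor, 1.24 to 3.13 CPM for tumor 2. The remaining vehicle values lay within the liraglutide range. Group means were 2.16 ± 2.39 and 1.28 ± 0.809 CPM (n = 5 each), the log2 fold change of liraglutide over vehicle was -0.71 (SE 0.71), and the difference did not pass the test (edgeR quasi-likelihood test, adjusted p = 0.741 over 17464 genes; two-sided exact permutation test, p = 0.611). Without vehicle tumor 3 the log2 fold change was 0.22, so the sign rested on that tumor. With 5 tumors against 5 the exact test can go no lower than 0.00794.

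Cfd encodes adipsin, the complement factor D that fat cells release in large amounts. Its values in the vehicle tumors were 0.069, 1.72, 4.51, 1.09 and 0.326 CPM. In the liraglutide tumors they were 0.086, 1.14, 3.56, 1.13 and 2.16 CPM. Tumor 3 was the highest and tumor 1 the lowest of each group, and the groups overlapped over nearly the whole range. The log2 fold change was 0.13 (SE 0.87, edgeR adjusted p = 0.970; exact permutation p = 0.754). It was 1.09 without vehicle tumor 3, -0.38 without liraglutide tumor 3 and 0.61 in limma-voom.

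Lep encodes leptin, the satiety hormone whose blood level follows fat mass. It had 0, 7, 16, 1 and 0 counts in the vehicle tumors and 1, 3, 5, 0 and 3 counts in the liraglutide tumors. Its highest level, 1.68 CPM in vehicle tumor 3, was followed by 0.710 CPM in vehicle tumor 2, and the 8 other tumors were at 0.379 CPM or less. The 3 tumors at 0 counts allow a level of up to the floor of 3 counts. The fitted log2 fold change was -1.23 (SE 1.06) and did not pass the test (edgeR adjusted p = 0.637 over 35141 genes; exact permutation p = 0.722). It was 0.089 without vehicle tumor 3 and -0.060 in limma-voom with all tumors, and the mean difference of log2 CPM was -0.32.

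Retn encodes resistin, named for the insulin resistance it causes in mice. At 1, 5, 1, 0 and 1 counts in the vehicle tumors and 0, 2, 2, 0 and 3 counts in the liraglutide tumors, it was above the floor only in vehicle tumor 2. A difference between treatments was not detectable at this depth (log2 fold change -0.35, SE 1.01, edgeR adjusted p = 0.921; exact permutation p = 0.778). Without vehicle tumor 2 the log2 fold change was 0.75.

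Among the proteins of the fat droplet, Plin1 encodes perilipin-1, which coats it and guards it from lipases. Plin1 counts were 1, 11, 28, 2 and 1 in the vehicle tumors and 1, 6, 19, 2 and 14 in the liraglutide tumors. Tumors 2 and 3 of each group and liraglutide tumor 5 held nearly all of them, so the groups overlapped. The fitted log2 fold change was -0.31 (SE 0.89, edgeR adjusted p = 0.921), while the mean difference of log2 CPM was 0.11 (exact permutation p = 0.849), so its sign was not settled. It was 0.98 without vehicle tumor 3.

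Cidec, whose product helps lipid pass from small droplets to large ones, was measured at 2.90, 7.30, 15.9, 16.5 and 13.8 CPM in the vehicle tumors. The liraglutide tumors were at 8.73, 2.78, 22.7, 12.6 and 8.11 CPM. Vehicle tumors 3 to 5 and liraglutide tumors 3 and 4 formed the upper end, and the groups overlapped. The log2 fold change was -0.03 (SE 0.54, edgeR adjusted p = 0.987; exact permutation p = 0.881).

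**Figure D2:**
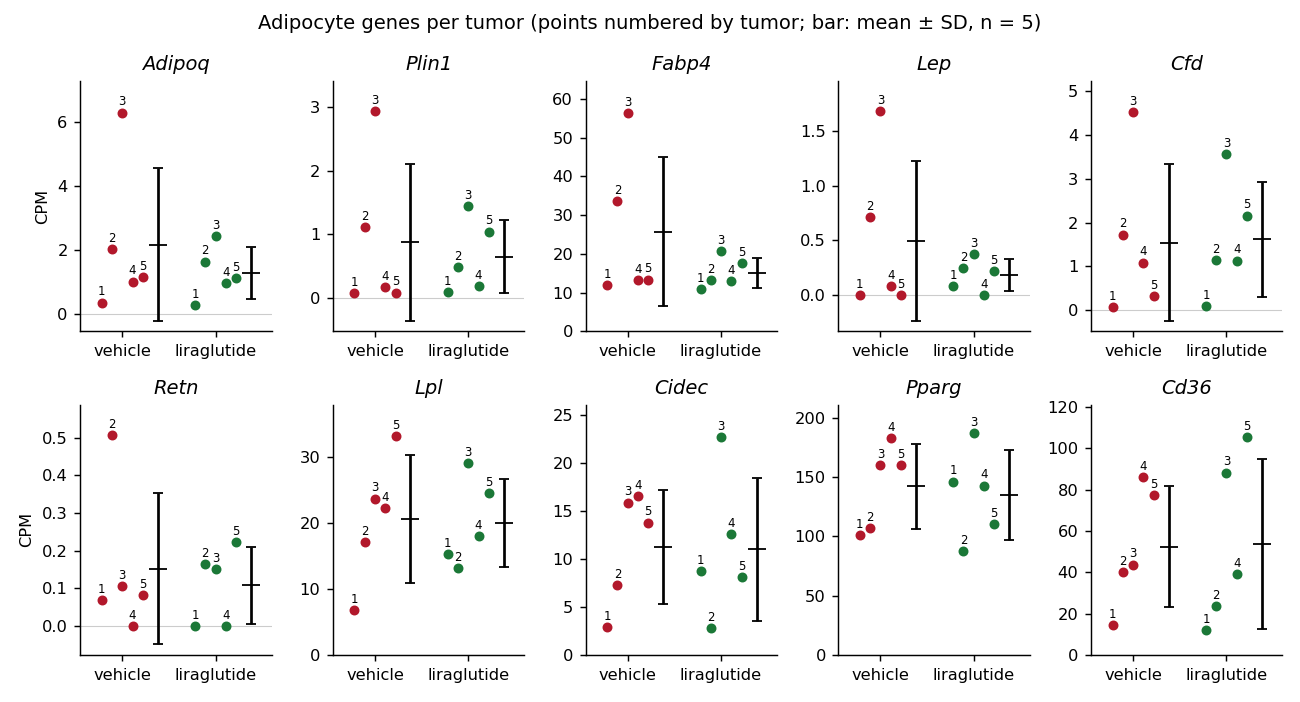
CPM of the 10 adipocyte genes in every tumor, 1 panel per gene, with points numbered by tumor (red, vehicle; green, liraglutide) and bars for the mean ± SD of 5 tumors. Vehicle tumor 3 is the highest of all tumors for Adipoq (6.30), Plin1 (2.94), Fabp4 (56.3), Lep (1.68) and Cfd (4.51), while for Cidec, Pparg and Cd36 liraglutide tumor 3 or 5 is.

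Uptake and transport of fatty acids begin with Lpl, the lipase that acts on circulating lipoproteins at the vessel wall. The vehicle tumors were at 6.84, 17.1, 23.7, 22.3 and 33.2 CPM, and the liraglutide tumors at 15.3, 13.2, 29.2, 18.0 and 24.6 CPM. All liraglutide values lay inside the vehicle range. The log2 fold change was -0.04 (SE 0.36, edgeR adjusted p = 0.979; exact permutation p = 0.897).

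Cd36, a scavenger receptor that takes up long-chain fatty acids, was at 14.3, 40.0, 43.7, 85.9 and 77.5 CPM in the vehicle tumors. In the liraglutide tumors it was at 12.01, 23.8, 88.3, 39.1 and 105 CPM. Tumor 1 was the lowest in both groups, and each group had 2 tumors at 77.5 CPM or more. Means were close to each other at 52.3 ± 29.3 and 53.7 ± 41.0 CPM (n = 5 each), with a log2 fold change of 0.04 (SE 0.59, edgeR adjusted p = 0.987; exact permutation p = 0.873).

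Fabp4, a fatty acid binding protein of the cytoplasm and the member with the smallest p, was at 11.95, 33.7, 56.3, 13.3 and 13.4 CPM in the vehicle tumors. The liraglutide tumors were at 11.0, 13.1, 20.6, 12.8 and 17.6 CPM. Vehicle tumors 2 and 3 were above every liraglutide tumor, whereas vehicle tumors 1, 4 and 5 lay within the liraglutide range. The means were 25.7 ± 19.3 and 15.0 ± 3.95 CPM, the log2 fold change was -0.77 (SE 0.43), and the difference did not pass the test (edgeR unadjusted p = 0.0993, adjusted p = 0.581; exact permutation p = 0.325). Without vehicle tumor 3 the log2 fold change was closer to 0 at -0.25, and it remained below 0 in every alternative run.

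Pparg, the nuclear receptor of fat cell formation, was the most abundant member. It was at 101, 107, 160, 183 and 160 CPM in the vehicle tumors and at 146, 87.7, 187, 143 and 111 CPM in the liraglutide tumors. Both the highest and the lowest value belonged to the liraglutide group, and the spread was small for this list, with the highest tumor 2.13 times the lowest. The log2 fold change was -0.08 (SE 0.22, edgeR adjusted p = 0.920; exact permutation p = 0.722).

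Across the list, 0 of the 10 genes passed an adjusted p of 0.05 in edgeR, and 0 passed an unadjusted p of 0.05. Among all 17464 genes tested, 0 (0.0%) passed the adjusted threshold in edgeR, with 0 in limma-voom as well, and 1675 (9.59%) had an unadjusted p under 0.05, 3.97% higher and 5.62% lower with liraglutide. DESeq2 called 52 genes over all, but its independent filtering left an adjusted p to Pparg alone among the members (0.905). Run without that filtering, DESeq2 called 11 genes and gave all 10 members an adjusted p, the lowest being 0.897 for Fabp4. In 0 of the 10 genes were the 2 groups without overlap, against 1.49% of the genes tested. Fitted log2 fold changes were below 0 for 8 of the 10 genes, against 52.6% of the genes tested, although Lpl turned to 0.023 and Cidec to 0.019 when library size alone replaced the TMM factors. Without vehicle tumor 3 they were below 0 for 4 of the 10, namely Fabp4, Cd36, Pparg and Retn. The standard errors ran from 0.22 for Pparg to 1.06 for Lep, and a p above the threshold does not show that the treatments had the same level.

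**Figure D3:**
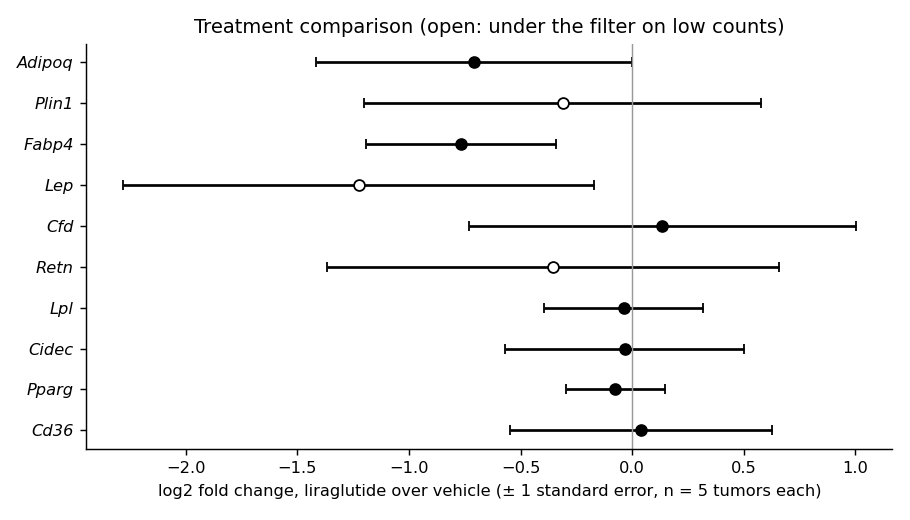
Log2 fold change of liraglutide over vehicle for each adipocyte gene (x axis) with ± 1 standard error from edgeR, 5 tumors per group; filled points are genes that passed the filter on low counts, open points genes that did not. Estimates run from -1.23 for Lep, which was -0.060 in limma-voom, to 0.13 for Cfd, and none passed the test.

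The spread between tumors of the same treatment was wide for most of these genes. The SD of log2 CPM within groups was 0.329 for the median tested gene. It was 1.57 for Cfd, larger than in 99.4% of tested genes, 1.18 for Adipoq (97.5%), 1.17 for Cd36 (97.5%) and 1.06 for Cidec (96.4%). Fabp4 (0.749, 89.6%) and Lpl (0.689, 87.2%) were lower, and Pparg (0.401, 61.6%) was near the middle. These percentages are a description, and the part that counting error has in them was not tested.

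Relations between the genes were read across the tumors. Pearson correlations of log2 CPM (prior count 2) were tested for 29 relations over the 10 tumors, between each member and 3 anchor genes: Adipoq for fat, Cdh5, a junction protein of endothelial cells, and Csf1r, the receptor that macrophages depend on. Each p came from 100000 random pairings and was adjusted over the 29 by Benjamini-Hochberg. Adipoq varied with Cfd (r = 0.89, permutation p = 0.00059, adjusted p = 0.0057; rho = 0.84, permutation p = 0.0037, adjusted p = 0.054). Its relation to Plin1 was r = 0.87 (permutation p = 0.00026, adjusted p = 0.0038; rho = 0.82, permutation p = 0.0057, adjusted p = 0.055). For Fabp4 it was r = 0.86 (permutation p = 0.00026, adjusted p = 0.0038; rho = 0.90, permutation p = 0.0008, adjusted p = 0.023), and for Lep r = 0.83 (permutation p = 0.0025, adjusted p = 0.018; rho = 0.74, permutation p = 0.018, adjusted p = 0.13). The relations with Cfd, Plin1, Fabp4 and Lep were the 4 that passed an adjusted p of 0.05 by Pearson's r. Lep and Plin1 hold the C/EBP-type letters within the 100 bases printed, Adipoq and Cfd do not, and Fabp4 had no window. Windows of Cidec and Pparg hold the letters too, at r with Adipoq of 0.40 and 0.21. So do 10.8% of all promoters searched, in windows longer than those printed. A link of the letters to the correlations was not tested. By Spearman's rho only the relation of Adipoq with Fabp4 passed.

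With Adipoq the other 5 members gave lower values: r = 0.52 for Lpl, 0.49 for Cd36, 0.47 for Retn, 0.40 for Cidec and 0.21 for Pparg (permutation, adjusted p = 0.288, 0.288, 0.309, 0.401 and 0.710). Whether these correlations differ from the higher ones was not tested. Without vehicle tumor 3 they were 0.55, 0.66, 0.63, 0.31 and 0.067 in the same order. Leaving out the 2 tumors farthest from the median of Adipoq gave r = 0.83 for Cfd, 0.78 for Plin1, 0.67 for Fabp4 and 0.79 for Lep. Without vehicle tumor 3 alone, r was 0.88 for Cfd, 0.78 for Plin1, 0.71 for Fabp4 and 0.68 for Lep, and 0 of the 29 relations passed (permutation, adjusted p = 0.0774, 0.182, 0.208 and 0.208). Within the vehicle tumors r was 0.91 to 0.94 for these 4 genes, and within the liraglutide tumors it was 0.93 for Cfd, 0.83 for Plin1, 0.78 for Fabp4 and 0.65 for Lep. Each of the latter rests on 5 tumors and is given as a description.

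**Figure D4:**
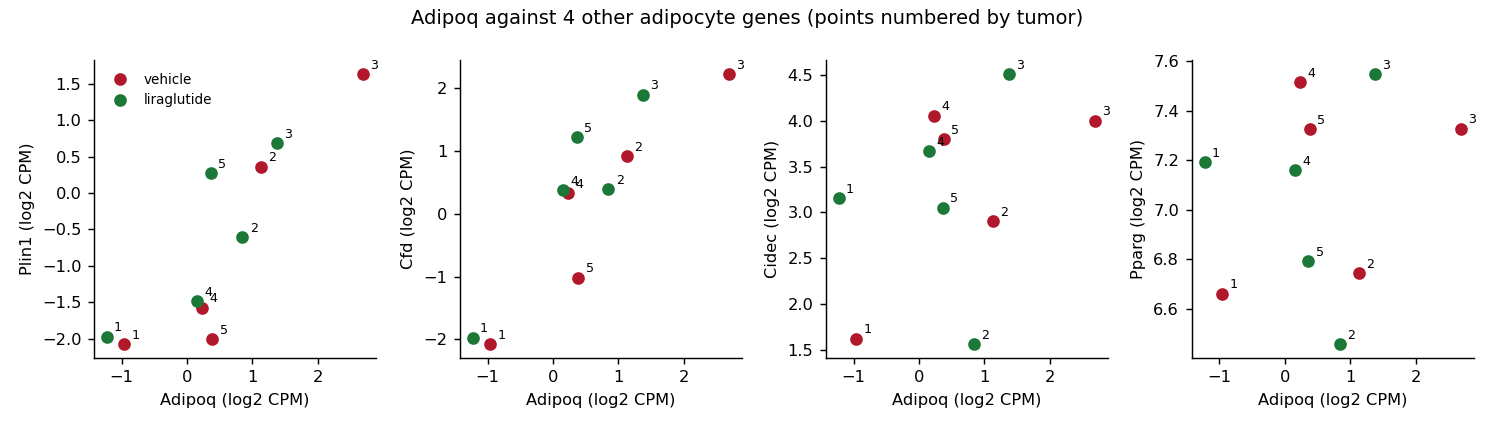
Log2 CPM of Adipoq (x axis) against log2 CPM of Plin1, Cfd, Cidec and Pparg (y axes) in the 10 tumors, numbered by tumor and colored by treatment (red, vehicle; green, liraglutide). Plin1 and Cfd climb with Adipoq (r = 0.87 and 0.89) with vehicle tumor 3 at the far end, while Cidec (r = 0.40) and Pparg (r = 0.21) scatter.

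Lpl, Cidec, Pparg and Cd36 varied with each other to differing degrees. As a description over 10 tumors that share library depth, r was 0.93 for Cidec with Pparg (rho = 0.99), 0.83 for Lpl with Cidec and 0.82 for Lpl with Cd36. It was 0.47 for Pparg with Cd36. Between these 4 genes and Adipoq, Plin1, Cfd, Lep or Fabp4, r ran from 0.025 for Lep with Pparg to 0.64 for Cfd with Cd36. Vehicle tumors 4 and 5 and liraglutide tumor 3 were among the 4 highest tumors for Pparg, Cidec and Cd36. Cidec, although a fat droplet gene, gave r = 0.28 with the droplet coat gene Plin1.

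**Figure D5:**
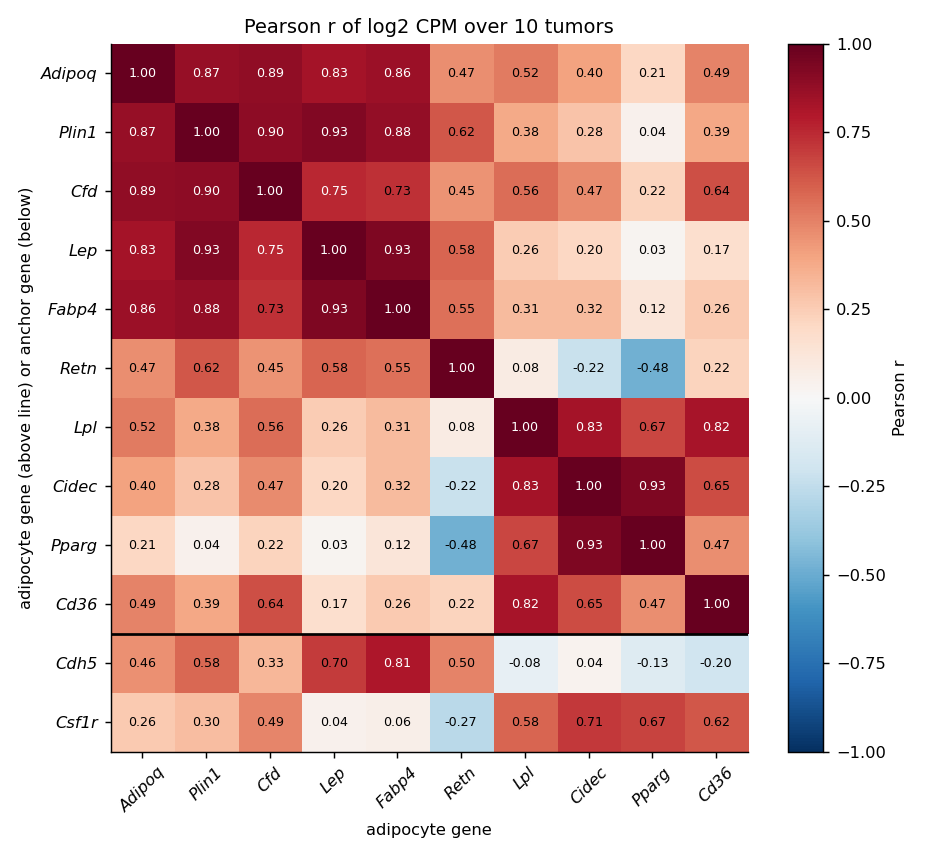
Pearson r of log2 CPM over the 10 tumors between the adipocyte genes (rows above the line and columns), and between each of them and the anchor genes Cdh5 and Csf1r (rows below the line), with color from -1 (blue) to 1 (red). Adipoq, Plin1, Cfd, Lep and Fabp4 have r of 0.73 or more with each other. Among Lpl, Cidec, Pparg and Cd36 r runs from 0.47 (Pparg with Cd36) to 0.93 (Cidec with Pparg), a range that pairs such as Cfd with Cd36 (0.64) and Adipoq with Lpl (0.52) reach as well.

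The anchors of other cell types gave no relation that passed over all 10 tumors. The largest with Cdh5 was that of Fabp4 (r = 0.81, permutation p = 0.015, adjusted p = 0.089; rho = 0.25, permutation p = 0.49, adjusted p = 0.73), and it was -0.09 without the 2 tumors farthest from the median of Cdh5. The largest with Csf1r was that of Cidec (r = 0.71, permutation p = 0.021, adjusted p = 0.10; rho = 0.71, permutation p = 0.028, adjusted p = 0.15), and it was 0.74 without the 2 tumors farthest from the median of Csf1r. Pparg (r = 0.67), Cd36 (r = 0.62) and Lpl (r = 0.58) followed, with permutation adjusted p of 0.119, 0.178 and 0.219. After each tumor was centered on its group mean, 7 relations passed, adding Cdh5 with Fabp4 (r = 0.78), Csf1r with Cidec (r = 0.78) and Csf1r with Pparg (r = 0.78), with permutation adjusted p of 0.036, 0.036 and 0.042. The pairings made no allowance for the centering, so these p-values may be too small. Within vehicle and liraglutide tumors r was 0.88 and -0.22 for Cdh5 with Fabp4. It was 0.67 and 0.87 for Csf1r with Cidec, and 0.88 and 0.72 for Csf1r with Pparg.

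Markers of other host cells were summed in each tumor. In vehicle tumor 3, the tumor richest in Adipoq, the summed level of 10 skeletal muscle genes was 283 CPM, against 43.9 to 139 CPM in the other vehicle tumors. In the liraglutide tumors 1 to 5 it was 96.5, 143, 268, 245 and 372 CPM, so that liraglutide tumor 5 exceeded vehicle tumor 3 at an Adipoq level of 1.12 CPM. Of the muscle genes, Tnnc2 was at 0 or 1 count, Acta1, muscle actin, was at 31.9 ± 22.8 CPM in vehicle and 51.6 ± 21.4 CPM in liraglutide tumors, and Ckm, muscle creatine kinase, at 2.63 ± 2.56 and 4.91 ± 2.04 CPM. The summed level of 9 genes of adipocyte progenitors was 455 CPM in the same tumor, against 202 to 253 CPM in the other vehicle tumors and 161 to 306 CPM in the liraglutide tumors. A large part of this sum was 1 gene, F3, whose CPM is given below, so the sum does not measure progenitors as such. The sum of 10 endothelial genes was 213 CPM in vehicle tumor 3 and 201 CPM in vehicle tumor 2, the tumors with the most Fabp4, against 128 to 163 CPM in vehicle tumors 1, 4 and 5 and 135 to 178 CPM in the liraglutide tumors. The sum of 10 macrophage genes was 448 to 1014 CPM in vehicle and 473 to 632 CPM in liraglutide tumors, highest in vehicle tumor 3. Its median was lower with liraglutide (593 against 844 CPM), although 8 of the 10 genes had a log2 fold change above 0, so the sum does not follow most of its genes. No endothelial or macrophage gene was at 0 in any tumor. The first 2 genes of each list were Pecam1 (33.6 ± 7.28 CPM in vehicle and 32.7 ± 3.35 CPM in liraglutide tumors) with Cdh5 (42.4 ± 11.0 and 37.0 ± 2.38 CPM), and Csf1r (41.7 ± 7.64 and 50.0 ± 13.7 CPM) with Adgre1 (17.1 ± 3.85 and 19.2 ± 8.81 CPM). The part of these cells in the adipocyte values was not tested.

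Between the treatments, 9 of 9 tested muscle genes and 7 of 7 tested keratinocyte genes had a log2 fold change above 0, with 1 and 6 of them at an unadjusted p under 0.05, all higher with liraglutide, and 0 at an adjusted p under 0.05 (edgeR). Among all genes tested 3.97% were higher at an unadjusted p under 0.05, and 52.6% had a log2 fold change below 0. Of the macrophage genes 8 of 10 were above 0 and of the endothelial genes 7 of 10, with 1 of each list at an unadjusted p under 0.05, lower with liraglutide. The keratinocyte sum was 11.9 to 25.6 CPM in vehicle and 12.4 to 253 CPM in liraglutide tumors, with Krt5 at 0 counts in some tumors and Krt14, the basal keratin, at 5.98 ± 4.00 and 30.8 ± 36.9 CPM.

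Genes outside the list that were most like a member, by r of log2 CPM over 10 tumors among all tested genes, are given as a description. For Adipoq they were Cpeb2 (r = 0.91), Hp (0.89) and Gid8 (0.89), and for Cfd they were Hp (0.96), Steap4 (0.90) and Coro2b (0.87). Fabp4 was matched by Gm43508 (0.94), Gm34921 (0.93) and Slco2b1 (0.91), and Lpl by Sumo3 (0.99), Epn3 (0.97) and Gltp (0.96). Cidec was matched by Gm35330 (0.96), Clrn3 (0.95) and Nostrin (0.94), Pparg by Adhfe1 (0.96), 4930444A19Rik (0.96) and Ier5 (0.94), and Cd36 by Stimate (0.98), Klhl6 (0.95) and Trim30d (0.95). Hp was the gene named for 2 members.

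The rest of the fat cell program was read from 72 further genes in 8 lists, of which 54 could be tested. None passed an adjusted p of 0.05 (edgeR), and 6 had an unadjusted p under 0.05, against 9.59% of all genes tested, 4 of them higher and 2 lower with liraglutide. Of the 54, 32 had a log2 fold change above 0, and the median was 0.03, against -0.02 for all genes tested. The 72 genes include many that every cell uses to make or store lipid.

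Of 7 tested droplet genes 4 had a log2 fold change above 0 and 1 an unadjusted p under 0.05, and of 5 tested lipolysis genes 3 and 0. Plin2, the droplet coat found in most cells, had the highest level of its list, at 193 ± 22.8 CPM in vehicle and 163 ± 20.3 CPM in liraglutide tumors (log2 fold change -0.24, edgeR adjusted p = 0.536). Hilpda, a hypoxia-inducible inhibitor of lipolysis, had the smallest p of the droplet list, at 71.5 ± 39.8 and 33.3 ± 19.6 CPM (log2 fold change -1.10, unadjusted p = 0.0474, edgeR adjusted p = 0.518). The lipolysis list was led by Pnpla2, the main triglyceride lipase, at 51.7 ± 18.2 and 66.7 ± 19.3 CPM (log2 fold change 0.37, edgeR adjusted p = 0.643). G0s2, its inhibitor, was at 2.95 ± 2.21 and 1.06 ± 1.08 CPM (log2 fold change -1.47, edgeR adjusted p = 0.575).

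Of 6 tested genes of fatty acid synthesis 5 had a log2 fold change above 0 (median 0.08), as had 5 of 7 of triglyceride synthesis (median 0.055), and 0 of either list had an unadjusted p under 0.05. Scd1, a fatty acid desaturase, was at 288 ± 106 and 555 ± 464 CPM, with 1354 CPM in the highest liraglutide tumor (log2 fold change 0.94, edgeR adjusted p = 0.536). Gpd1, which makes the glycerol backbone of triglyceride, was at 29.2 ± 20.0 and 57.0 ± 33.4 CPM (log2 fold change 0.96, edgeR adjusted p = 0.534). Srebf1, of the transcription factor list, in which 6 of 8 tested genes were above 0 (median 0.32), switches on fatty acid synthesis. It was at 78.4 ± 8.12 and 100 ± 20.2 CPM (log2 fold change 0.36, unadjusted p = 0.0295, edgeR adjusted p = 0.503).

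Of 8 tested genes of fatty acid and glucose uptake 5 had a log2 fold change above 0, and 4 had an unadjusted p under 0.05, 3 higher and 1 lower with liraglutide, against 3.97% and 5.62% of all genes tested. The insulin receptor gene Insr belongs to this list and had its smallest p. It was at 150 ± 7.86 CPM in vehicle and 178 ± 10.4 CPM in liraglutide tumors, without overlap (136.9 to 156.8 against 163.7 to 189.9 CPM; log2 fold change 0.25, edgeR adjusted p = 0.482). Groups did not overlap in 1.49% of the genes tested. Cav1, the caveolar coat protein that is abundant in fat cells and endothelium, had the highest level of that list and was at 172 ± 33.7 and 126 ± 21.3 CPM (log2 fold change -0.44, edgeR adjusted p = 0.482). Of 7 further secreted products tested 2 were above 0, and of 6 other fat cell genes 2, with 0 of either list at an unadjusted p under 0.05. Among the secreted products Apoe, a lipoprotein component that macrophages also make, was at 157 ± 48.1 and 227 ± 90.5 CPM (log2 fold change 0.53, edgeR adjusted p = 0.561). In the list of other fat cell genes Car3, a carbonic anhydrase shared by fat and muscle, was the highest, at 15.5 ± 16.9 and 18.1 ± 10.9 CPM (log2 fold change 0.23, edgeR adjusted p = 0.918), and Adra2a, an adrenergic receptor that restrains lipolysis, had the smallest p, at 8.85 ± 5.31 and 6.77 ± 2.57 CPM (log2 fold change -0.39, edgeR adjusted p = 0.765).

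Receptors for fat cell hormones were a further list. Lepr, the leptin receptor, was at 32.6 ± 15.0 CPM in vehicle and 16.8 ± 6.62 CPM in liraglutide tumors (14.7 to 52.5 against 6.14 to 23.8 CPM, overlapping; log2 fold change -0.96, SE 0.38, unadjusted p = 0.0293, edgeR adjusted p = 0.503). Cap1, an actin regulator described as a receptor for resistin, was at 439 ± 83.1 and 344 ± 58.6 CPM (log2 fold change -0.35, edgeR adjusted p = 0.518). Of the 7 receptor genes tested, 2 had an unadjusted p under 0.05, both lower with liraglutide, against 5.62% lower among all genes tested, and 0 passed after adjustment. Of 8 tested progenitor genes 0 had an unadjusted p under 0.05, with F3, tissue factor, at 176 ± 96.6 and 110 ± 42.5 CPM (log2 fold change -0.68, edgeR adjusted p = 0.550).

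Some counts may hold reads of neighboring genes. In GENCODE M39 antisense lncRNAs overlap 24.0% of the exon bases of Fabp4, 9.71% of those of Adipoq, 9.13% of those of Cidec, 1.81% of those of Pparg and 0.777% of those of Lpl, and a pseudogene overlaps 3.36% of those of Retn. The libraries kept strand, and the strand setting of the counting is not given in the sources used here. Cd36, Cfd, Lep and Plin1 had no such overlap.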

How the data were processed

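RNA-Seq of 10 KPN1.1 tumors was analysed from the raw counts per gene that the authors deposited. The authors depleted ribosomal RNA, mapped read pairs with Bowtie and TopHat and counted genes with featureCounts. Their methods name GRCm39 and the submitters' processing notes name mm10 and GRCh38, so no gene coordinates of the files are given. The annotation release is not given in the sources used here. Of 55401 versioned identifiers, 51731 (93.4%) matched a GENCODE M39 symbol, holding 98.3% of the counts. Groups came from the sample labels.

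In R 4.3.3 genes were filtered (filterByExpr), scaled by TMM and tested with edgeR 4.0.16 (quasi-likelihood F test, treatment as the single factor, Benjamini-Hochberg adjustment over all tested genes, threshold 0.05). CPM is the count divided by the scaled library size, times 1000000. Single genes were also compared by two-sided exact permutation of log2 CPM (prior count 2), and correlations with 100000 pairings (scipy 1.17.1). Alternatives were limma-voom (limma 3.58.1), DESeq2 1.42.0 and its size factors within edgeR, unscaled library sizes, no filter, at least 10 counts in every tumor, robust empirical Bayes, tumor number as a block, prior count 0.5, centering on group means, Spearman's rho and each tumor left out. The exact tests under other settings, DESeq2 with no independent filtering and the length of all annotated exons were added after seeing the data. The fits and correlations were tested on simulated data.

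All 10 members are named. Of each further adipocyte list, the gene with the highest level per length and the tested gene with the smallest p are named, of each list of other cells the first 2 genes, and for each tested member the 3 genes most like it. Adig, Adrb3, Ucp1, Plin4, Lipe, Cidea and Tnnc2 were named after their values were seen. The members and lists were chosen with earlier results of these data known.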

Additional observations from a re-analysis of the deposited data

Results flagged for a closer look

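Within groups of 5 tumors, 1 tumor stood far from the rest for 2 of the 10 genes. Adipoq in vehicle tumor 3 was at 6.30 CPM, with the next vehicle tumor at 2.03 CPM, a gap of 0.717 of the group's range where the 95% critical value of Dixon's test is 0.71. Retn in vehicle tumor 2 was at 0.507 CPM, with the next vehicle tumor at 0.105 CPM, a gap of 0.793 of the range, and this rests on 5 counts against 1. In all, 20 groups were tested, and chance alone singles out about 1 in 20.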

How the results depend on the processing

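No adipocyte gene passed an adjusted p of 0.05 under the 18 alternatives to the edgeR test that gave each tested member one, and the lowest was 0.340. The filter of 10 counts in every tumor left 5 members, and DESeq2 gave Pparg alone an adjusted p (0.905), so it was left out of that count. Exact permutation p-values over 120 alternatives were 0.190 to 1.0. Over all genes DESeq2 called 52, and 11 with no independent filtering (added after seeing the data), where edgeR called 0; the cause was not tested. Log2 fold changes had the other sign in 33 of 185 alternatives, 7 of them with all tumors: Cd36 at -0.11 in limma-voom and -0.13 with the replicate block, Lpl at 0.11 in limma-voom, 0.023 with library size alone and 0.051 with the replicate block, Cidec at 0.019 with library size alone, and Plin1 at 0.51 in limma-voom. With 1 tumor left out, log2 fold changes ran from -1.08 to 0.22 for Adipoq, -0.83 to 0.98 for Plin1, -1.63 to 0.089 for Lep, -0.38 to 1.09 for Cfd, -0.75 to 0.75 for Retn, -0.26 to 0.21 for Lpl, -0.48 to 0.22 for Cidec, -0.22 to 0.054 for Pparg and -0.35 to 0.31 for Cd36. Fabp4 stayed below 0, from -0.95 to -0.25.

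The number of relations passing, 4 by Pearson's r, was 4 with library size alone, 3 with prior count 0.5 and 7 after centering on group means. It was 1 by Spearman's rho and 0 to 5 with 1 tumor left out, the 0 being without vehicle tumor 3. Equal numbers were not treated as pairs in the main test, and the labels do not call them pairs. Deviations of same-numbered tumors had r = 0.354, 0.565, -0.0753, 0.0681 and 0.389 for numbers 1 to 5. Differently numbered tumors had r of -0.508 to 0.560. For every number Adipoq was lower with liraglutide. With the number as a block its log2 fold change was -0.51 (edgeR adjusted p = 0.457) and its SE 0.30, against 0.71. The SE fell for the other members except Retn (1.32, against 1.01). Whether the numbers mark pairs was not tested. With the tumor number as a replicate block edgeR called 0 genes and 0 members, and 2585 genes had an unadjusted p under 0.05, against 1675 without it. Between 1 and 3 counts, as for Retn, Lep and Plin1 in several tumors, counting error is as large as the level itself.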
